A study of Homo sapiens with 38 samples.

Results

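The HOX genes of the 4 human clusters A to D were followed through RNA sequencing of 5 neuroblastoma cell lines. All gene symbols made of HOX, a cluster letter from A to D and a number were taken, which gave 39 of the 52360 genes listed in the count tables, with no use of their values. HOXA holds 11 of them at chr7:27132612-27239710 on the minus strand, HOXB 10 at chr17:46605888-46806112 on the minus strand, HOXC 9 at chr12:54332615-54449814 on the plus strand and HOXD 9 at chr2:176957449-177055635 on the plus strand (GRCh37). All 39 are protein-coding genes. Exons of 24 of the 39 overlap those of another listed gene, among them 8 that overlap another HOX gene. The strand setting of the counting was not given, and read pairs that touched more than 1 gene had been set aside, so the levels of these 24 genes are less certain than those of the other 15.

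HOX proteins are homeodomain transcription factors that give cells along the head-to-tail axis their positional identity. Within a cluster the order of the genes follows the order in which they are used, low paralog numbers in the hindbrain and neck and high ones in the trunk, limbs and tail, and genes with the same number in different clusters are paralogs with related roles. The silent stretches of a cluster carry H3K27me3, a histone mark that Polycomb complexes place and that the demethylases KDM6A and KDM6B remove. Neuroblastoma is a childhood tumour of the sympathetic lineage of the trunk neural crest.

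BE2C is an established neuroblastoma line with MYCN amplification. BE2C cells had been transfected for 72 h with a control siRNA (siCtrl, 2 libraries) or with the siRNA N1, N2 or N33 against KDM6B (siKDM6B, 1 library each), or kept with GSK-J4, a small-molecule inhibitor of the KDM6 demethylases, at 2.5 µM for 0, 24 or 48 h (2 libraries per time). The other 4 lines had been treated for 72 h with palbociclib, an inhibitor of the cell cycle kinases CDK4 and CDK6, at a dose of 0.3 µM (CHLA15, CHLA20) or 3 µM (NB1643, NB1691), and each had a control without the drug (2 libraries for every line and arm). The labels name no vehicle arm at 24 or 48 h of GSK-J4, so those times were compared with 0 h. The doses of palbociclib differ between the pairs of lines, so that dose and line cannot be told apart in differences between them. Per the labels the material is a cell line, while their extraction text speaks of xenograft tissue. Nothing in the labels says that the libraries of a group came from separate cultures, so that p-values measure the spread between these libraries, which may be technical.

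The 27 libraries held 36186567 to 93011010 counts on genes, of which 2301 to 36043 fell on HOX genes. Levels are given as CPM, the counts of a gene relative to its library size, which was scaled by the trimmed mean of M values (edgeR's cpm function). Where no library of a group had more than 3 counts of a gene, that gene counted as being at the floor, which lies between 0.0395 and 0.0844 CPM depending on the library. Folds against such a group are lower bounds that cover counting error only. BE2C was counted in tables with another set of genes than the other 4 lines, so that levels of BE2C and of the others are set side by side without a test. A member is called changed at a Benjamini-Hochberg adjusted p under 0.05 in edgeR's quasi-likelihood F test, adjusted over all genes tested.

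The study's text gives the palbociclib lines as an equal mix of lines with and without MYCN amplification. MYCN, chosen after its values were seen, was at 3093 and 3257 CPM in the control libraries of NB1643, close to BE2C at 0 h (3004 and 3027), at 2.28 to 3.39 in CHLA15 and CHLA20, and at 86.1 and 86.5 in NB1691. MYCN RNA at the level of BE2C was thus found in 1 of the 4 lines, and the libraries labelled NB1691 go against that description. Their identity was not tested: NB1691 stands below for the libraries with that label, and results over all 4 lines are given with and without them.

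Promoters are shown for 4 genes that fell together during GSK-J4 treatment (HOXD13, HOXD10, HOXD8 and HOXC4) and for HOXA13, which rose there and in untreated cells reached 1 CPM in NB1691 alone. Each run covers 250 bases before and 50 after a RefSeq start site in GRCh38.p14, 5′ to 3′ on the strand of the gene, with every CG pair in capitals. HOXD13 lies at chr2:176092471-176092770, HOXD10 at chr2:176116528-176116827, HOXD8 at chr2:176129455-176129754 and HOXC4 at chr12:54016638-54016937, all on the plus strand, and HOXA13 at chr7:27200042-27200341 on the minus strand.
HOXD13: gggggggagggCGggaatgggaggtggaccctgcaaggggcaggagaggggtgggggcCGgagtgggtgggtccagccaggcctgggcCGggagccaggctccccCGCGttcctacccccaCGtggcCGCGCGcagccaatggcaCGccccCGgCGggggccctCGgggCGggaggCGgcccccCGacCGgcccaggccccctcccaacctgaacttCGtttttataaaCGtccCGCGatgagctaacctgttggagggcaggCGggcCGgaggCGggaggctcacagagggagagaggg
HOXD10: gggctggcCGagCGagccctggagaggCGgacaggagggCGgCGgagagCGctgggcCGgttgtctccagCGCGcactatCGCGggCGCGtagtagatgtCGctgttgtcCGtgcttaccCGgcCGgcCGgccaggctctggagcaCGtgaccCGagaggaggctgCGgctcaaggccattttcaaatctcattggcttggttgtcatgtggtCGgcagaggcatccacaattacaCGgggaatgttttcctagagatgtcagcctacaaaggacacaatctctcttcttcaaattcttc
HOXD8: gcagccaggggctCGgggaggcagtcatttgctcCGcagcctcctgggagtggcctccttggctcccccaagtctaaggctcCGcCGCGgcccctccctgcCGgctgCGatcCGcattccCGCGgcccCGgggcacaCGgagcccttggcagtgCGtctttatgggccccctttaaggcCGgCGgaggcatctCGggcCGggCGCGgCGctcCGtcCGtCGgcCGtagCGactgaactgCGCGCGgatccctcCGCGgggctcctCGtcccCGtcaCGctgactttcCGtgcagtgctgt
HOXC4: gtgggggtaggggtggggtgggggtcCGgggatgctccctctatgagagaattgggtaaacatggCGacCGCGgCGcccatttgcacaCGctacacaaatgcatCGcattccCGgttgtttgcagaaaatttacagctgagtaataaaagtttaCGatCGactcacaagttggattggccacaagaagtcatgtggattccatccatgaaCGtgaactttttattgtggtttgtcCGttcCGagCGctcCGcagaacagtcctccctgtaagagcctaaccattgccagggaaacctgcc
HOXA13: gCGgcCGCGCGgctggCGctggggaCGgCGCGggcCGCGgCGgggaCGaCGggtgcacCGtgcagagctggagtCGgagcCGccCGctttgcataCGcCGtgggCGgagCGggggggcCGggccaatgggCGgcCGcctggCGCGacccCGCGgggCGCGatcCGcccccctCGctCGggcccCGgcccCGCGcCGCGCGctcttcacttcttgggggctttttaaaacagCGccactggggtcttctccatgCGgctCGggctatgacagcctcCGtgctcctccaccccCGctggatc
The windows hold 24, 23, 34, 15 and 44 CG pairs in the order printed. Of the 39 members, 20 had a promoter in the RefSeq table, with 26 distinct windows in all, 1 of them listed for both HOXC4 and HOXC5. The windows held a median of 22.5 CG pairs (range 0 to 44), against 14 over 34796 distinct windows of all genes. Read on both strands, the letters CACGTG, the E-box that MYC proteins are known to bind, stood in 9 of the 26 HOX windows (34.6%), HOXD13 and HOXD10 among them, and in 7.20% of all windows. The letters GCGGGAA of the E2F motif stood in 3 HOX windows (11.5%), HOXD13 and HOXD8 among them, against 6.56% of all. TTTATG, which CDX and posterior HOX proteins can bind, stood in 3 HOX windows (11.5%) against 10.6%, and TGATTNAT, a PBX-HOX motif, in 2 (7.69%) against 2.82%. The windows of HOXC4 and HOXA13 held none of these letters. CACGTG and GCGGGAA each hold a CG pair, and the HOX windows are richer in CG pairs than all windows. Shares among windows of like CG content were not determined. Start sites share clusters, some windows overlap and 7 of the windows are of HOXA3, so these shares are a description.

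The lines shared a trunk core and differed in which cluster they added to it. In untreated cells, 9 members had a mean of at least 1 CPM in all 5 lines: HOXC4, HOXC6, HOXC8, HOXC9 and HOXC10 of cluster C, and HOXD8, HOXD9, HOXD10 and HOXD13 of cluster D. HOXC4 to HOXC10 pattern the neck and trunk, where HOXC8 and HOXC9 divide brachial from thoracic motor neurons, HOXD9 and HOXD10 act in the lumbar cord and limb, and HOXD13 in the digits. At the other end, 19 members had a mean of at least 1 CPM only in NB1691, with BE2C taken at 0 h. HOXC11, among the 19, was at 0.745 and 1.01 CPM in BE2C at 0 h. In the siCtrl libraries of BE2C it was at 0.846 and 1.43 CPM, a mean above 1 CPM. HOXA6, HOXB1, HOXC12, HOXC13 and HOXD12 stayed below 1 CPM in every untreated line. The remaining 6 were spread over several lines: HOXD3 was above 1 CPM in all but BE2C at 0 h, HOXD4 in CHLA15, CHLA20 and NB1643, HOXB2 and HOXB3 in CHLA15, CHLA20 and NB1691, HOXD1 in NB1643 and NB1691, and HOXC5 in NB1643 alone. The number of members at 1 CPM or more was 9 in BE2C at 0 h, 13 each in CHLA15, CHLA20 and NB1643, and 32 in NB1691.

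**Figure D1:**
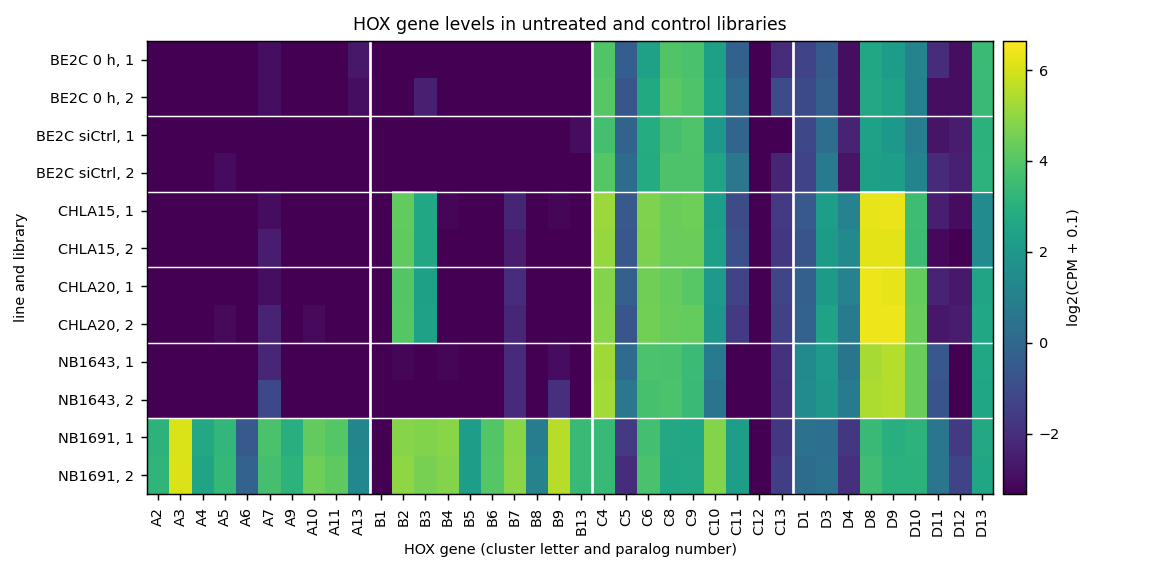
Levels of the HOX genes described (columns, by cluster and paralog number, clusters separated by white lines) in 12 untreated or control libraries (rows), as log2(CPM + 0.1). The HOXC4 to HOXC10 and HOXD8 to HOXD10 columns are bright in every line, apart from HOXC5, the HOXB2 and HOXB3 columns in CHLA15, CHLA20 and NB1691, and nearly all of HOXA and HOXB in NB1691 alone.

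Summed over all members, HOX RNA was highest in NB1691, at 471 ± 7.7 CPM (SD, n = 2), followed by CHLA20 at 313 ± 9.9, CHLA15 at 308 ± 10, NB1643 at 203 ± 2.5 and BE2C at 0 h at 83.9 ± 4.7. The totals of CHLA15 (301 and 315 CPM) and CHLA20 (306 and 320 CPM) overlap, and those of the other lines do not. The split among clusters differed more than the total. Cluster C carried 58.8 ± 4.4 CPM in BE2C at 0 h and 108 ± 2.1 in CHLA15, and cluster D carried 25.0 ± 0.32 in BE2C, 176 ± 7.5 in CHLA15, 199 ± 6.6 in CHLA20 and 123 ± 1.4 in NB1643. Cluster B reached 24.9 ± 0.37 CPM in CHLA15 and 21.0 ± 0.32 in CHLA20, all but a trace from HOXB2 and HOXB3, and 194 ± 0.78 in NB1691. Cluster A was at 171 ± 5.1 CPM in NB1691 and between 0.048 and 0.227 CPM on average in the other 4 lines.

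Levels of different genes were compared per kilobase of exon. On that scale HOXC9 led in BE2C at 0 h (8.51 CPM per kb), ahead of HOXC8 (6.62), HOXC4 (5.72) and HOXD13 (4.47). HOXD9 led in CHLA15 (41.5 CPM per kb), CHLA20 (43.3) and NB1643 (24.5), each time ahead of HOXD8 (29.1, 32.2 and 16). In NB1691 the highest were HOXB7 (19.5), HOXB9 (18.4), HOXA3 (16.1), HOXB4 (14.1) and HOXB2 (12.1). Cluster C made up 70.5% of the HOX level per kb in BE2C, 33.1% in CHLA15, 28.2% in CHLA20, 36.0% in NB1643 and 15% in NB1691. Cluster D made up 29.4%, 60.4%, 66.4%, 63.8% and 9.07% in the same order, and in NB1691 clusters A and B held 31.2% and 44.7%. By paralog number, groups 8 and 9 were the highest per kb in CHLA15 (37.7 and 54.3 CPM per kb) and NB1643 (21.7 and 31.1). In NB1691 the levels were spread over groups 2 to 10, from 7.63 (group 8) to 28.9 (group 9).

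NB1691 was the line in which clusters A and B were on across nearly their whole length. Its control libraries had HOXA2, which patterns the second branchial arch, at 8.66 and 9.01 CPM, and HOXA3, needed for thymus and parathyroid, at 68.1 and 70.3. HOXA4 was at 6.30 and 5.57 CPM, HOXA5, a lung and trunk gene, at 9.71 and 9.73, HOXA7 at 13.7 and 12.9 and HOXA9, well known from leukaemia, at 7.63 and 8.69. HOXA10 and HOXA11, which act in limb and uterus, were at 19.1 and 21.9 CPM and at 16.3 and 17.9, and HOXA13, which shapes the ends of the limbs and the genital tract, at 2.29 and 2.39. In the control libraries of the other 3 lines counted with it, HOXA7 was the only cluster A gene above the floor, at 0.0264 to 0.345 CPM. The control libraries of NB1691 therefore lay above every library of those lines for each of these genes.

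Cluster B of NB1691 ran from HOXB2 to HOXB13 with HOXB1 at 0 in both libraries. HOXB2 was at 28.4 and 30.8 CPM, HOXB3 at 26.8 and 24.3, HOXB4, known for its part in blood stem cells, at 28.8 and 27.5, HOXB5 at 4.77 and 4.52 and HOXB6 at 15.5 and 16. HOXB7 was at 29.0 and 30.4 CPM, HOXB8 at 1.71 and 2.10, HOXB9, a rib and thoracic cord gene, at 47.3 and 47.8, and HOXB13, known from prostate and tail, at 10.8 and 10.8. Against the 2 control libraries of NB1643, HOXA3 was at least 1202-fold higher, HOXB2 at least 515-fold, HOXB3 at least 444-fold, HOXA10 at least 356-fold, HOXA11 at least 297-fold, HOXB6 at least 274-fold, HOXB13 at least 187-fold, HOXA5 at least 169-fold and HOXA2 at least 154-fold. Against CHLA15, HOXA3 was at least 1325-fold higher, HOXB9 at least 911-fold, HOXB4 at least 540-fold and HOXA10 at least 393-fold, and against CHLA20, HOXB9 was at least 859-fold and HOXB4 at least 510-fold higher. Genes at the floor outside NB1691 passed the filter through its libraries, so these folds are given as a description, without a test.

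Most of the trunk core was lower in NB1691 than in CHLA15. Beside BE2C at 0 h, without a test, HOXC6, HOXC10, HOXD8, HOXD9 and HOXD10 lay higher in NB1691, and HOXC4, HOXC8, HOXC9 and HOXD13 lower. HOXD9 was at 7.52 and 8.20 CPM in NB1691 against 81.0 and 74.3 in CHLA15, a log2 fold change of -3.30 (SE 0.0801, adjusted p = 1.07e-17). HOXD8 was at 10.6 and 11.9 CPM against 78.3 and 74.6, with a log2 fold change of -2.76. HOXC4, HOXC8 and HOXC9 had log2 fold changes of -1.72, -1.75 and -1.80 in the same comparison. HOXC10, a lumbar gene, went the other way, at 27.3 and 27.9 CPM in NB1691 against 4.64 and 4.80 in CHLA15 (log2 fold change 2.55, SE 0.0974, adjusted p = 1.08e-14), as did HOXD13 (1.19). HOXC11 was at 4.72 and 4.69 CPM in NB1691, at 0.396 and 0.435 in CHLA15 and at 0 in both control libraries of NB1643, and HOXD11 was at 1.41 and 1.39 CPM in NB1691 and at 0.546 CPM or less in the control libraries of the other 3 lines.

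Other genes set NB1691 apart from the 3 lines as well. Of all tested genes, as compared with NB1643, 44.6% were higher and 36.1% lower in NB1691. The 13 sympathetic neuroblast markers summed to 809 to 893 CPM in its control libraries against 3465 to 4858 CPM in untreated or control libraries of the other 4 lines, and 11 of the 13 were lower than in NB1643 (1 higher). TH, the enzyme that opens catecholamine synthesis, was at 0.752 and 0.688 CPM, and HAND2, a transcription factor of sympathetic cells, at 90.5 and 97.5 against 895 and 857 in NB1643. The 13 mesenchymal markers summed to 81209 and 81437 CPM against 433 to 1833 CPM elsewhere, with 11 of 12 tested higher than in NB1643 and 1 lower. Most of that sum was fibronectin FN1 at 61798 and 61800 CPM and collagen COL1A1 at 14841 and 14558, while its partner chain COL1A2 was at 1.76 and 1.63. YAP1 was at 192 and 197 CPM against 0 in NB1643, and among 5 epithelial markers, of which 3 of 4 tested were higher, KRT18 was at 297 and 299 and KRT8 at 50.1 and 50.2. The 6 lymphoid markers summed to 0.768 and 0.833 CPM, with 2 of 3 tested higher and PTPRC at 0.544 and 0.383. The part of these differences in the HOX pattern of NB1691 was not tested.

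CHLA15 and CHLA20 had the same members at 1 CPM or more. Of 37 members tested, 5 differed between the controls of these lines, where 12.4% of all 22133 tested genes did. The 37 include members at the floor in both lines, which passed the filter through other lines, so nothing is read from this share. HOXD13 was at 2.70 and 2.68 CPM in CHLA15 and 5.52 and 6.05 in CHLA20 (log2 fold change 1.10, SE 0.126, adjusted p = 1.2e-05), and HOXD10 at 11.5 and 11.3 against 19.3 and 20.3 (0.80, SE 0.0645, adjusted p = 4.43e-07). HOXC4, HOXC9 and HOXB2 were slightly lower in CHLA20, with log2 fold changes of -0.28, -0.25 and -0.24 (edgeR adjusted p = 0.00566, 0.0313 and 0.0472). Leaving out CHLA15 control replicate 1 ended the calls of HOXC4, HOXC9 and HOXB2 (edgeR adjusted p = 0.08, 0.176 and 0.251), while HOXD13 and HOXD10 were called under every alternative run. HOXB2 and HOXB3, which pattern the hindbrain, were present in both, HOXB2 at 19.0 and 18.4 CPM in CHLA15 and 15.7 and 16 in CHLA20, HOXB3 at 5.96 and 6.12 and at 4.95 and 5.17. Neither HOXB1 nor any member from HOXB4 to HOXB13 exceeded 0.139 CPM in control libraries of these lines.

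NB1643 lacked the HOXB pair. HOXB2 was at 0.0136 and 0 CPM and HOXB3 at 0 and 0, which is at least 325-fold and at least 105-fold lower than in CHLA15, and at least 276-fold and at least 87.9-fold lower than in CHLA20. HOXC11 was at least 7.22-fold lower than in CHLA15. HOXD1, a gene of pain-sensing neurons, was at 2.63 and 2.67 CPM in NB1643 against 0.593 and 0.505 in CHLA15 (log2 fold change 2.26, SE 0.197), and HOXD11 was higher too (3.28, SE 0.455, 0.546 and 0.499 CPM in NB1643). HOXC10 was lower in NB1643, at 1.64 and 1.34 CPM (log2 fold change -1.64), as were HOXC9 (-0.98), HOXC6 (-0.92) and HOXD8 (-0.86). HOXD13 and HOXD10 were higher than in CHLA15, with log2 fold changes of 1.13 and 0.88, and so was HOXC5 (1.08). HOXB2, HOXB3, HOXC11 and HOXD11 passed the filter on low counts only through lines in which they were higher. Their differences are therefore a description. The other genes named so far in this paragraph had an adjusted p under 0.05 in edgeR. HOXA7 and HOXB9 were also called higher in NB1643 than in CHLA15 at levels below 0.35 CPM. Both calls were lost without NB1643 control replicate 2 (edgeR log2 fold changes 1.28 and 1.67). Both genes passed the filter only through lines in which they were higher, HOXB9 through NB1691 alone, so nothing is read from these calls.

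Over the 4 lines, 36 of 37 tested members differed in at least 1 line, against 91.2% of all tested genes. With NB1691 left out 16 of 19 did, against 72.2% of all. Called members numbered 18 between NB1643 and CHLA15 (64.6% of all genes), 16 between NB1643 and CHLA20 (64.5%), 36 between NB1691 and CHLA15 (78% of all genes), 35 between NB1691 and CHLA20 (77.5%) and 34 between NB1691 and NB1643 (80.7%). Members that passed the filter on low counts through NB1691 alone had to differ, so the counts that involve this line are not read as support for anything. HOXB1 and HOXC12 did not pass the filter.

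Genes in and around the clusters were higher and lower in NB1691, where 44.6% of all tested genes were higher and 36.1% lower than in NB1643. Of the 31 HOX-cluster noncoding RNAs in the list used, 14 were tested in the 4 lines, and 10 were higher and 4 lower in NB1691 than in NB1643. HOTAIRM1 and HOXA-AS2, antisense RNAs of cluster A, were among the 10, with reads that cannot be told apart from those of their HOX partners where the exons overlap. Among 14 tested flanking genes 9 were higher and 5 lower in NB1691, and the HOXB neighbours SKAP1, PRAC1 and PRAC2 were among the higher ones. Among 10 TALE cofactors, the homeodomain partners of HOX proteins on DNA, 3 were higher and 6 lower, MEIS1 with a log2 fold change of -2.76, MEIS3 with -2.04 and MEIS2 with -2.01. Of the 6 CDX and ParaHox genes, the regulators and relatives of the clusters, 2 were tested, with CDX1 higher (2.51) and GSX2 lower.

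The trunk HOX genes of BE2C were lower after GSK-J4. At 24 h, 9 of 15 tested members were lower than at 0 h and 0 higher, where 28% of all 17734 tested genes were lower and 27.3% higher. At 48 h 8 were lower and 1 higher, where 34.4% of all genes were lower and 37.1% higher. The 1 higher, HOXA13, passed the filter on low counts through the 48 h libraries alone. The median log2 fold change of the 15 members was -0.44 at 24 h and -0.81 at 48 h, beside 0.01 and 0.05 over all tested genes (HOXA13, the only tested member at the floor at 0 h, lies above the median with its fold or with its bound). The other 24 members did not pass the filter and stayed at 0.232 CPM or less. Cluster C fell from 58.8 ± 4.4 CPM to 44.4 ± 0.69 and 36.0 ± 1.8 (SD, n = 2 at each time), and cluster D from 25.0 ± 0.32 to 15.5 ± 0.49 and 11.8 ± 0.65. The target of the compound moved in the opposite direction: KDM6B RNA was at 7.42 and 8.16 CPM at 0 h, 16.1 and 16.6 at 24 h and 23.7 and 22.8 at 48 h.

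HOXD13, the last gene of its cluster, fell the furthest of the members above 1 CPM. It was at 11.0 and 10.6 CPM at 0 h, 4.87 and 5 at 24 h and 3.03 and 2.61 at 48 h. The 3 times did not overlap, and the log2 fold changes against 0 h were -1.13 (SE 0.102, adjusted p = 2.83e-13) and -1.93 (SE 0.108, adjusted p = 1.04e-20). HOXC4 was at 15.2 and 16.5 CPM, then at 9.65 and 10.6, then at 6.9 and 7, again without overlap between times (log2 fold changes -0.65 and -1.19, SE 0.0791 and 0.0816, adjusted p = 1.5e-09 and 1.38e-17). HOXC8 was at 15.2 and 16.8 CPM at 0 h, 12.5 and 12.7 at 24 h and 8.40 and 7.61 at 48 h, with most of its fall in the later interval (log2 fold change -0.35 at 24 h, -0.99 at 48 h and -0.65 from 24 h to 48 h). HOXD10 went from 2.10 and 1.97 CPM to 1.24 and 0.979 and to 0.988 and 0.769 (-0.87 and -1.19, adjusted p = 0.000829 and 7.24e-06).

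The other members fell less or lay lower. HOXC9 was at 13.7 and 14.7 CPM, then 12.4 and 11.3, then 9.97 and 9.25 (log2 fold change -0.26 and -0.56). HOXD8 was at 6.07 and 6.39 CPM, 4.66 and 4.36, and 3.63 and 3.48 (-0.47 and -0.81), and HOXD9 was at 4.47 and 5.12, 3.96 and 3.36, and 3.26 and 3.10 (-0.39 and -0.59). HOXC11, at the edge of the expressed block, fell from 0.745 and 1.01 CPM to 0.295 and 0.255 and to 0.247 and 0.263 (-1.66 and -1.78, adjusted p = 0.000229 and 4.33e-05). For HOXC9, HOXD8, HOXD9 and HOXC11 no 24 h or 48 h library reached the lower 0 h library.

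HOXC6 and HOXC10 were closer to their starting level at 48 h than HOXC4, HOXC8 and HOXC9. HOXC10 lies between HOXC11 and HOXC9, which fell. Exons of HOXC6 overlap those of HOXC4 and HOXC9, which fell too. Read pairs shared by these genes had been set aside, so their levels are less certain. HOXC6 was at 5.13 and 6.56 CPM at 0 h, 5.27 and 5.17 at 24 h and 6.45 and 5.95 at 48 h, with log2 fold changes of -0.16 and 0.09 (edgeR adjusted p = 0.247 and 0.464). HOXC10 was at 5 and 5.46 CPM, then 3.31 and 4.38, then 4.74 and 4.23 (-0.44 at 24 h, adjusted p = 0.00363, and -0.21 at 48 h, adjusted p = 0.12 in edgeR). Whether their changes differed from those of their neighbours was not tested. HOXA13 was the member that rose: it was at 0.0552 and 0.0281 CPM at 0 h, 0.105 and 0.0851 at 24 h and 0.262 and 0.243 at 48 h. It was at least 2.99-fold higher at 48 h than at 0 h. It had 2 and 1 counts at 0 h and 17 and 12 in the 48 h libraries. It passed the filter through those libraries alone, where it was high, so nothing is read from its calls. HOXB9, below the filter, was at 0 in both 0 h libraries and at 0.162 to 0.232 CPM in the 4 treated ones. Between 24 h and 48 h 7 members differed, where 53.9% of all genes did: HOXC4, HOXC8, HOXC9, HOXD8 and HOXD13 were lower at 48 h, and HOXC6 and HOXA13 higher (0.25 and 1.39, adjusted p = 0.0415 and 0.0376 in edgeR). The calls of HOXC6 and HOXA13 were lost when any 1 of the 4 libraries was left out (edgeR adjusted p = 0.0544 to 0.3 and 0.102 to 0.231) and with DESeq2 (adjusted p = 0.237 and 0.256), and that of HOXD8 with DESeq2 (adjusted p = 0.0689) and without 24 h replicate 1 or 48 h replicate 2 (edgeR adjusted p = 0.082 and 0.0572).

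**Figure D2:**
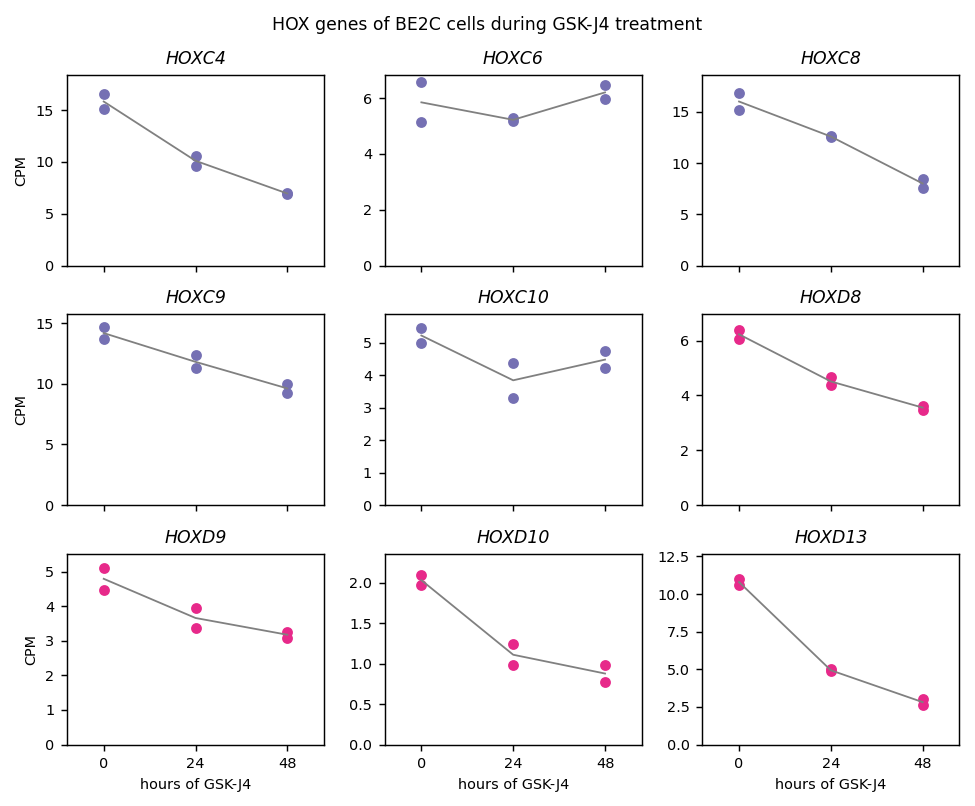
Levels in CPM of the 9 HOX genes above 1 CPM in all 5 lines, in BE2C cells at 0, 24 and 48 h of GSK-J4; points are libraries (n = 2 per time), the line joins the means, and each panel has its own axis from 0. HOXD13 drops from about 11.0 to 2.61 and 3.03 CPM, whereas HOXC6 stays between 5.13 and 6.56 CPM.

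Under all alternatives run, 6 of the 9 calls at 24 h held (HOXC4, HOXC8, HOXC11, HOXD8, HOXD10 and HOXD13) and 8 of the 9 at 48 h, all but HOXA13, which was lost without 0 h replicate 2 (edgeR adjusted p = 0.0606). HOXC9, HOXC10 and HOXD9 lost their 24 h calls without 0 h replicate 2 (edgeR log2 fold changes -0.21, -0.38 and -0.29). The HOXC10 call was also lost without 24 h replicate 1 (-0.25), and those of HOXC9 and HOXD9 without 24 h replicate 2 (-0.19 and -0.27). That of HOXD9 was lost with DESeq2 too (adjusted p = 0.0678).

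Genes related to the clusters are given beside all tested genes, of which 28% were lower and 27.3% higher at 24 h. At 48 h the shares were 34.4% lower and 37.1% higher. Of 9 tested TALE cofactors 6 were lower and 0 higher at 24 h, and 7 lower and 0 higher at 48 h, with PBX2 at a log2 fold change of -0.99, MEIS1 at -0.76 and MEIS3 at -0.56 at 48 h. Of 6 tested noncoding RNAs 2 were lower at 24 h, HAGLR, an antisense RNA of the HOXD cluster (-0.81), and HOXD-AS2 (-0.45). Both were lower at 48 h as well (-1.09 and -1.0), and HOTAIR, transcribed from the HOXC cluster, was higher (0.54, adjusted p = 4.7e-05). Flanking genes went both ways, 4 of 9 higher and 2 lower at 24 h and 5 higher and 4 lower at 48 h, among them SKAP2 (1.20), CALCOCO1 (1.03) and HIBADH (-0.64). None of the 6 CDX and ParaHox genes passed the filter.

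The chromatin regulators of the clusters went in both directions, as did all tested genes (28% lower and 27.3% higher at 24 h, 34.4% and 37.1% at 48 h). Nothing is read from their counts. Of 24 tested Polycomb genes 7 were higher and 9 lower at 24 h, and 9 higher and 11 lower at 48 h, with PHF19, a PRC2 cofactor, at -1.92, AEBP2 at 0.95 and BMI1 at 0.71 at 48 h. Of 13 tested Trithorax and MLL complex genes, the activators of the clusters, 6 were higher and 3 lower at 24 h and 7 higher and 5 lower at 48 h, with KDM6B at 1.58, KMT2A at 0.65, KMT2C at 0.61 and PAXIP1 at -0.55. Markers of cell type moved as well. The sympathetic sum was 4764 and 4858 CPM at 0 h and 4077 and 4094 at 48 h, with 11 of 13 markers lower and 2 higher at 48 h (7 and 5 at 24 h), and the mesenchymal sum was 433 and 453 CPM at 0 h and 669 and 677 at 48 h, with 3 of 10 higher and 5 lower (2 and 6 at 24 h). Epithelial markers went from 1.60 and 2.03 CPM to 4.82 and 4.88 (3 of 4 higher and 1 lower, 2 and 1 at 24 h), and the lymphoid list from 0.197 and 0.221 to 0.494 and 0.668, with CD74, its 1 tested gene, higher at both times. The part of these changes in the HOX levels was not tested. In bulk RNA, fewer cells with a gene on and less RNA per cell cannot be told apart.

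The siRNA experiment gave no HOX call. The targeted gene KDM6B had 6.47 and 8.76 CPM under siCtrl, and 8.99 CPM in the library labelled siKDM6B N1, 7.11 in N2 and 8.26 in N33. This is a log2 fold change of 0.09 (SE 0.299, adjusted p = 0.945 in edgeR), so its RNA was not lower under those labels. Of the 13 HOX members tested 0 were called, as were 0% of all 17472 tested genes. At an unadjusted p under 0.05 edgeR gave 1 member (and 1615 of all genes), and DESeq2 and limma-voom called 0 members (and 164 and 0 of all genes). The other 26 members did not pass the filter and stayed at 0.137 CPM or less, apart from HOXD4 at 0.0427 to 0.166. The median log2 fold change of the 13 was 0.20, beside 0.04 over all genes.

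The libraries labelled siKDM6B spread widely for several members. The siCtrl libraries had 14.7 and 14.3 CPM of HOXC9, while N1, N2 and N33 had 25.5, 9.64 and 10.6. HOXC4 was at 12.8 and 16.2 CPM against 22.0, 18.0 and 8.71, and HOXD13 at 8.26 and 8.70 against 3.78, 10.0 and 6.43. For each of the 3 genes the siKDM6B libraries lay on both sides of siCtrl. HOXC8 was the 1 member with an unadjusted p under 0.05, at 13.1 and 14.6 CPM against 17.9, 25.3 and 23.0 (log2 fold change 0.67, SE 0.265, adjusted p = 0.527 in edgeR). HOXC6 at 7.07 and 6.88 against 9.44, 9.33 and 10.3 (edgeR adjusted p = 0.629) and HOXD8 at 5.15 and 4.96 against 7.17, 6.54 and 6.88 (edgeR adjusted p = 0.664) were, like HOXC8, higher in every siKDM6B library without passing the test. HOXC5 was at 0.796 and 1.05 CPM against 0.733, 0.648 and 0.493. These 4 did not overlap between the arms. The share of all tested genes without overlap was not determined, so nothing is read from this count.

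**Figure D3:**
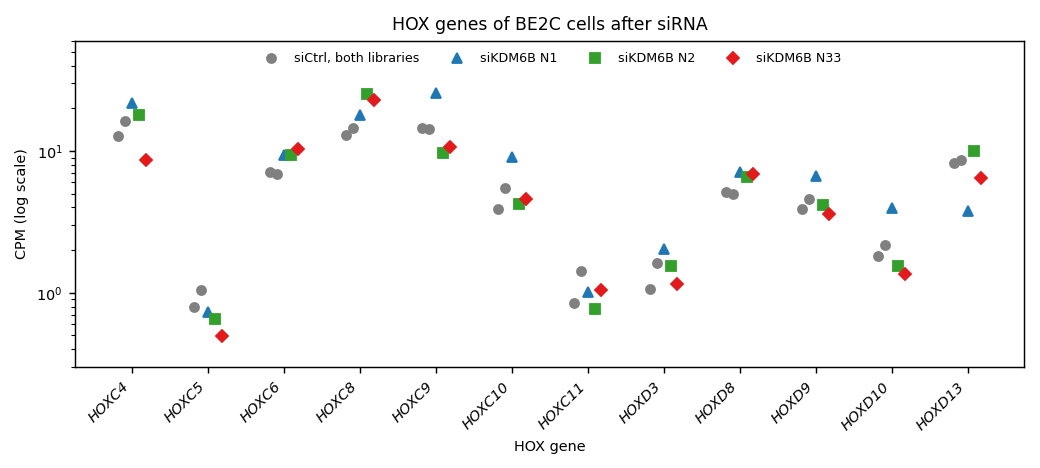
Levels in CPM on a log axis of the HOX genes that reached 1 CPM in any siRNA library of BE2C; grey circles are the 2 siCtrl libraries, and the triangle, square and diamond are the libraries labelled siKDM6B N1, N2 and N33. HOXC6, HOXC8 and HOXD8 lie above siCtrl in all 3, whereas HOXC4, HOXC9 and HOXD13 lie on both sides.

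HOXC10, at 3.88 and 5.49 CPM in siCtrl, was at 9.11, 4.20 and 4.57, HOXD9 at 3.91 and 4.55 was at 6.67, 4.14 and 3.62, and HOXD10 at 1.82 and 2.16 was at 3.95, 1.55 and 1.35. The library labelled N1 was the highest of the 5 for all 3 genes. HOXD3 was at 1.07 and 1.62 CPM against 2.03, 1.55 and 1.16, and HOXC11 at 0.846 and 1.43 against 1.02, 0.766 and 1.05. Sympathetic markers summed to 3465 and 3641 CPM in siCtrl and 1287 to 4658 in the 3 siKDM6B libraries, and mesenchymal markers to 684 and 687 against 572 to 778. None of the tested genes of the other lists was called in the siRNA comparison: 0 of 5 noncoding RNAs, 0 of 10 flanking genes, 0 of 9 TALE cofactors, 0 of 13 Trithorax and MLL genes, 0 of 24 Polycomb genes, 0 of 10 retinoic acid genes, 0 of 13 sympathetic, 0 of 10 mesenchymal and 0 of 4 epithelial markers, with no CDX, ParaHox or lymphoid gene tested.

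Palbociclib moved single HOX genes by small amounts. The summed HOX level was 305 ± 14 CPM with the drug against 308 ± 10 without it in CHLA15 and 467 ± 13 against 471 ± 7.7 in NB1691, where the library totals overlap, and 326 ± 4.8 against 313 ± 9.9 in CHLA20 and 220 ± 5.1 against 203 ± 2.5 in NB1643, where they do not (SD, n = 2 each). In CHLA15 5 of 37 tested members were called, 2 higher (14.2% of all tested genes) and 3 lower (15.6%). In CHLA20 there were 5 higher (13.7%) and 4 lower (15.9%), in NB1643 7 higher (20.3%) and 4 lower (19.7%), and in NB1691 4 higher (17.4%) and 7 lower (15.5%). The 37 include members at the floor in both arms of a line (17 in CHLA15, 16 in CHLA20 and 19 in NB1643), which passed the filter through other lines, so nothing is read from these shares. With the libraries labelled NB1691 left out, 19 members were tested and 4, 6 and 8 were called in CHLA15, CHLA20 and NB1643. Among members above 1 CPM, HOXC8 was higher with palbociclib in all 4 lines. It was at 21.0 and 20.6 CPM in CHLA15 controls against 23.5 and 23.3 with the drug, at 19.5 and 19.8 against 22.2 and 21.7 in CHLA20, at 13.7 and 13.9 against 16.5 and 16.7 in NB1643, and at 6.34 and 6.04 against 8.08 and 7.97 in NB1691. The groups did not overlap in any line, with log2 fold changes of 0.17, 0.16, 0.27 and 0.38 (edgeR adjusted p = 0.0381, 0.0492, 0.00164 and 0.000394). The calls in NB1643 and NB1691 held under every alternative. The call in CHLA15 held under 4 of 11 alternatives and that in CHLA20 under 2 of 11. Both were lost under the replicate block (edgeR adjusted p = 0.0591 and 0.0741) and with no filter beyond 1 count (0.188 and 0.219). Both were also lost when any 1 library of the line was left out (log2 fold changes 0.15 to 0.18 and 0.13 to 0.16). With DESeq2 the CHLA20 call was lost too (adjusted p = 0.0945).

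HOXC6 was higher in 3 of the lines. It was at 26.2 and 25.3 CPM in CHLA15 controls against 31.4 and 29.7 with palbociclib (log2 fold change 0.25, SE 0.0644), at 22.0 and 23.2 against 29.0 and 29.5 in CHLA20 (0.37, SE 0.0653), and at 14.0 and 13.2 against 19.1 and 18.5 in NB1643 (0.46, SE 0.0693). Its CHLA15 call was lost without palbociclib replicate 1 or control replicate 2 (edgeR adjusted p = 0.074 and 0.072). In NB1691 it was at 12.7 and 13.5 against 13.5 and 12.3 CPM (-0.02). The line by treatment interaction was past the threshold over the 4 lines (edgeR adjusted p = 0.00355) and not without NB1691 (0.292). HOXC9 was at 16.6 and 19.3 CPM against 22.3 and 22.7 in CHLA20 and at 10.9 and 10.8 against 14.3 and 13.4 in NB1643 (0.33 and 0.36, adjusted p = 0.00184 and 0.00106, the first lost without CHLA20 control replicate 1 with 0.20 and an edgeR adjusted p = 0.0578), and had log2 fold changes of 0.05 in CHLA15 and 0.12 in NB1691, neither called. HOXC10 went in opposite directions, from 4.08 and 3.71 CPM to 4.98 and 5.18 in CHLA20 (0.38, adjusted p = 0.0157) and from 1.64 and 1.34 to 1.20 and 0.799 in NB1643 (-0.56, adjusted p = 0.0156), with an interaction at an adjusted p = 0.00936 in edgeR. Both HOXC10 calls were lost when single libraries were left out, such as CHLA20 control replicate 2 (edgeR adjusted p = 0.121) and NB1643 palbociclib replicate 2 (0.199).

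In cluster D, HOXD13 and HOXD8 were on the lower side and HOXD9 on the higher. HOXD13 went from 5.52 and 6.05 CPM to 3.93 and 4.44 in CHLA20, from 6.03 and 5.72 to 3.73 and 4.67 in NB1643 and from 6.38 and 5.92 to 4.39 and 3.96 in NB1691. These are log2 fold changes of -0.46, -0.50 and -0.56 (edgeR adjusted p = 0.00599, 0.00279 and 0.00141), with no overlap between groups, against -0.11 in CHLA15 (adjusted p = 0.602 in edgeR). The NB1691 call of HOXD13 held under every alternative, while the call in CHLA20 was lost without palbociclib replicate 1 (edgeR adjusted p = 0.0761) and the call in NB1643 without its palbociclib replicate 1 (0.0921). HOXD8 went from 84.3 and 84.9 CPM to 71.9 and 72.2 in CHLA20 and from 40.9 and 43.2 to 32.5 and 32.7 in NB1643 (-0.23 and -0.37, adjusted p = 0.0103 and 0.000253), and had log2 fold changes of -0.14 in CHLA15 and -0.14 in NB1691, neither called.

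HOXD9, the direct neighbour of HOXD8, was at 45.9 and 45.9 CPM against 62.6 and 59.6 in NB1643 and at 7.52 and 8.20 against 10.6 and 10.2 in NB1691. Its log2 fold changes were 0.41 and 0.40 there (edgeR adjusted p = 0.000101 and 0.00154) and 0.03 and 0.15 in CHLA15 and CHLA20, not called, with an interaction at an adjusted p = 0.01 in edgeR. HOXD1 went from 2.63 and 2.67 CPM to 2.06 and 1.66 in NB1643 (-0.50, adjusted p = 0.0253) and from 1.22 and 1.06 to 1.84 and 1.49 in NB1691 (0.56, adjusted p = 0.0274). Both HOXD1 calls were lost with DESeq2 (adjusted p = 0.0929 and 0.0706). HOXD10 was at 20.9 and 21.0 CPM against 23.9 and 23.4 in NB1643 (0.18, adjusted p = 0.0301 in edgeR), and HOXD4 at 2.06 and 2.52 against 0.956 and 1.86 in CHLA15 (-0.69, adjusted p = 0.0487 in edgeR). The HOXD4 call was lost without palbociclib replicate 1 of CHLA15 (edgeR adjusted p = 0.486).

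**Figure D4:**
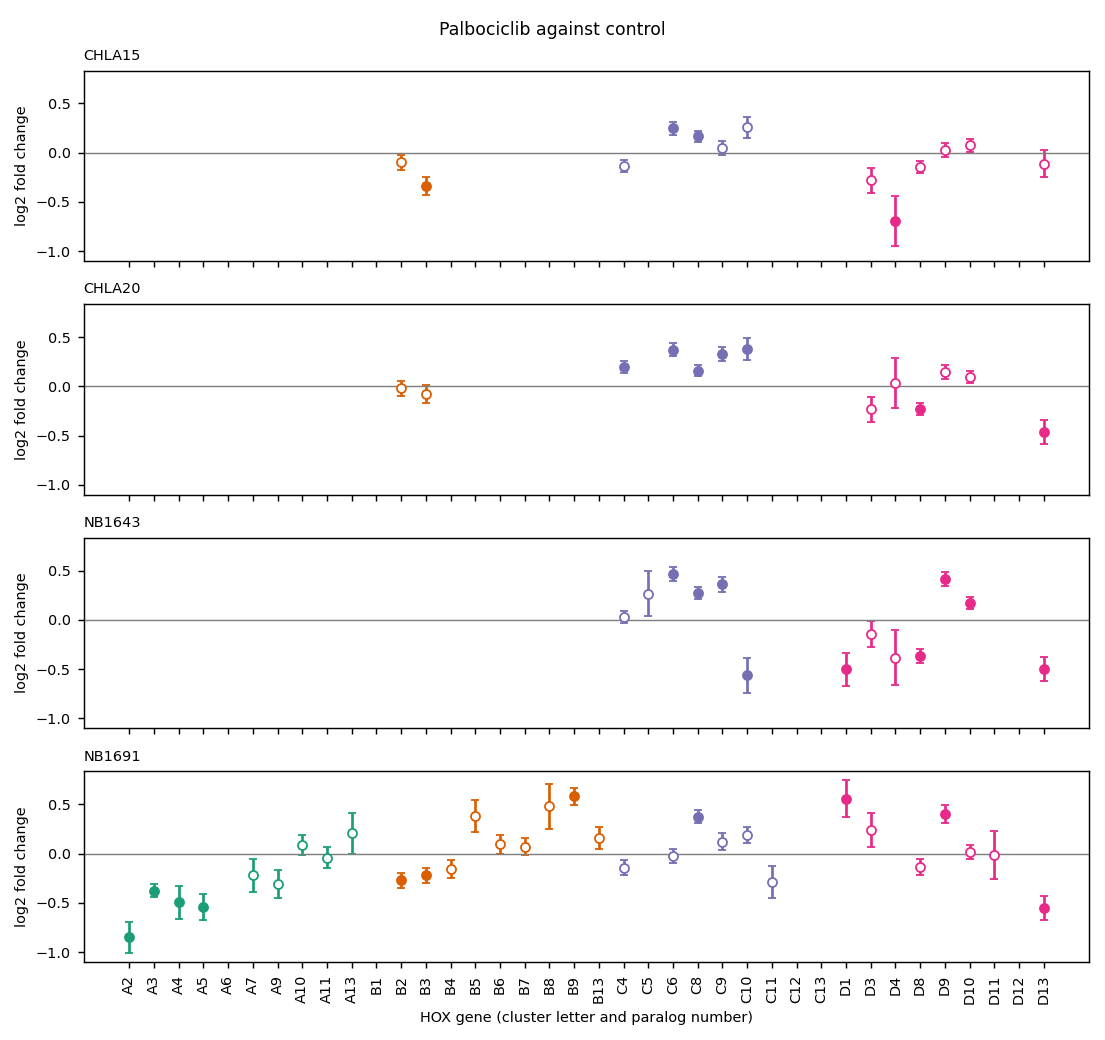
Log2 fold change of palbociclib against control (points) with its standard error (bars, n = 2 libraries per arm) for HOX genes with a mean of at least 1 CPM in either arm, 1 panel per line. Filled points have an edgeR adjusted p under 0.05; HOXC8 is filled above 0 in all 4 panels and HOXD13 is filled below 0 in CHLA20, NB1643 and NB1691.

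In NB1691 the front of cluster A was lower with palbociclib and HOXB9 higher. HOXA2 went from 8.66 and 9.01 CPM to 5.52 and 4.24 (log2 fold change -0.85, SE 0.161, adjusted p = 0.00136), HOXA3 from 68.1 and 70.3 to 53.2 and 53.4 (-0.38, SE 0.0668, adjusted p = 0.000844), HOXA5 from 9.71 and 9.73 to 6.73 and 6.65 (-0.54, adjusted p = 0.00561) and HOXA4 from 6.30 and 5.57 to 4.46 and 3.94 (-0.50, adjusted p = 0.0411). HOXA10, HOXA11 and HOXA13 were not called. HOXB2 went from 28.4 and 30.8 to 25.7 and 23.3 CPM and HOXB3 from 26.8 and 24.3 to 22.2 and 21.6 (-0.27 and -0.22, adjusted p = 0.00756 and 0.0281 in edgeR). HOXB9 went from 47.3 and 47.8 to 71.5 and 70.7 CPM (0.58, SE 0.0895, adjusted p = 0.000116), and the mean of cluster B from 194 to 211 CPM. Across the alternatives the calls of HOXA2, HOXA3 and HOXB9 held, whereas HOXA4 and HOXA5 were lost when any 1 library of NB1691 was left out (edgeR adjusted p = 0.104 to 0.263 and 0.0531 to 0.0649), and HOXB2 without control replicate 2 (0.123) or palbociclib replicate 2 (0.125).

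HOXB3 was also lower in CHLA15, at 5.96 and 6.12 against 4.79 and 4.76 CPM (log2 fold change -0.34, adjusted p = 0.00888), but not in CHLA20, at 4.95 and 5.17 against 4.79 and 4.77. Its CHLA15 call was lost without CHLA15 control replicate 2 (edgeR adjusted p = 0.0561), and without that library no member was called in CHLA15 (0 calls). HOXC4 was called in CHLA20 alone, at 27.8 and 28.4 against 32.0 and 32.3 CPM (0.20, adjusted p = 0.023), a call that was lost when any 1 library of that line was left out (edgeR adjusted p = 0.0557 to 0.138). At levels of 0.583 CPM or less, HOXC13 was lower in CHLA15 and CHLA20 (-2.37 and -2.07, adjusted p = 0.0193 and 0.0163), HOXB7 in CHLA20 at least 2.67-fold lower, and HOXA7 higher in NB1643 (1.22, adjusted p = 0.034 in edgeR). The HOXC13 calls were lost in CHLA15 without palbociclib replicate 2, control replicate 1 or control replicate 2 (edgeR adjusted p = 0.188, 0.0882 and 0.0586) and in CHLA20 without palbociclib replicate 2 or control replicate 1 (0.177 and 0.0719). The HOXA7 call was lost with DESeq2 and limma-voom (adjusted p = 0.0725 and 0.0623) and without palbociclib replicate 1 or control replicate 1 (edgeR log2 fold changes 0.82 and 0.51, adjusted p = 0.332 and 0.408). HOXA5 was called in NB1643 with both arms at the floor, so it has no fold.

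Over the 4 lines 8 members differed in their response to palbociclib, where 38% of all tested genes did. They were HOXC6, HOXC10, HOXD1 and HOXD9, described above, HOXC4 (edgeR adjusted p = 0.0161) and HOXD4 (0.0412), and HOXB7 (0.00363) and HOXA5 (0.0456), which were above 1 CPM in NB1691 alone, so nothing is read from those last 2. With NB1691 left out 3 of 19 tested members differed between the remaining lines, HOXC10 (0.0177), HOXC4 (0.041) and HOXD9 (0.0429 in edgeR), where 23.2% of all genes did, and HOXC6 (0.292), HOXD1 (0.455) and HOXD4 (0.374) did not pass the test. Around the clusters, HAGLR was lower in CHLA15, CHLA20 and NB1643 (log2 fold changes -0.37, -0.80 and -0.34), and EVX2, the homeobox gene beside HOXD13, was higher in the same 3 lines (1.82, 1.08 and 0.82). Of 14 tested noncoding RNAs 0 were higher and 4 lower in CHLA15, 1 and 2 in CHLA20, 0 and 2 in NB1643 and 1 and 2 in NB1691, where HOTAIR was higher (0.52) and HOXA-AS2 and HOTAIRM1 lower (-0.45 and -0.39). Of 14 tested flanking genes 2 were higher and 2 lower in CHLA15, 2 and 3 in CHLA20, 2 and 4 in NB1643 and 3 and 4 in NB1691. Over all tested genes, 14.2% were higher and 15.6% lower in CHLA15, 13.7% and 15.9% in CHLA20, 20.3% and 19.7% in NB1643 and 17.4% and 15.5% in NB1691. TALE cofactors had 1 higher and 5 lower of 10 in CHLA15, 1 and 2 in CHLA20, 1 and 3 in NB1643 and 3 and 4 in NB1691, with PKNOX2 lower in CHLA15 and CHLA20 (-1.43 and -1.09) and PBX3 in NB1643 (-0.75).

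Among 24 tested Polycomb genes 4 were higher and 6 lower in CHLA15, 2 and 8 in CHLA20, 3 and 9 in NB1643 and 3 and 9 in NB1691. The counts of this paragraph stand beside the shares over all tested genes given just above. EZH2, the enzyme that writes H3K27me3, had log2 fold changes of -0.39, -0.50, -1.50 and -1.48 in that order, and PHF19 of -1.54 in NB1643 and -1.96 in NB1691. Of 14 tested Trithorax and MLL complex genes 2 were higher and 3 lower in CHLA15, 1 and 4 in CHLA20, 1 and 5 in NB1643 and 1 and 4 in NB1691. The sympathetic sum went from 4104 and 4121 CPM to 6270 and 6478 in NB1643, with 10 of 13 markers higher and 0 lower, and from 809 and 893 to 1356 and 1372 in NB1691 (8 and 0). It went from 4146 and 4320 to 4226 and 4546 in CHLA15 (5 higher, 3 lower) and from 3707 and 3807 to 4241 and 4329 in CHLA20 (6 and 0). The part of these changes in the HOX levels was not tested.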

How the data were processed

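RNA was sequenced as paired ends. Per the study's methods and the submitters' processing notes, the authors aligned the reads to GRCh37 (hg19) with STAR 2.5.3a and obtained counts for each gene with HTSeq. The annotation named in the methods is a mouse one, although the deposited symbols are human, and the strand setting is not given in the sources used here. The 38 deposited files hold raw counts per symbol, 50652 genes in the BE2C tables and 50778 in the palbociclib tables, of which 49070 are shared. Summary lines at the end of a file, which name no gene, entered no library size or test. Of the counted and ambiguous read pairs, 2.89% to 4.15% were ambiguous.

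For BE2C, 22 files gave 11 libraries by adding up the 2 files of each, since the files of 1 library differed less (chi-square per degree of freedom 1.48 to 1.65) than files of different replicates (1.93 to 4.04). Each siRNA against KDM6B then has 1 library, and the 3 form 1 arm. The siRNA, GSK-J4 and palbociclib experiments were fitted apart, each over all its libraries, with edgeR 4.0.16 in R 4.3.3: genes were kept by filterByExpr and libraries scaled by TMM, then quasi-likelihood F tests were run, and p-values were adjusted by Benjamini-Hochberg over all genes tested and called at 0.05. The pipeline was tested on simulated data. Alternatives were DESeq2 1.42.0, limma-voom 3.58.1 (the kind of test the study used), upper-quartile scaling, no filter beyond 1 count, a replicate block, only the groups compared, each file as a sample, leaving out each library in turn and, chosen after seeing the data, leaving out the libraries labelled NB1691. Exon lengths are unions of GENCODE exons on GRCh37.

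All 39 members entered the counts and sums, while the values of some genes are not reported here. Members with a mean of at least 1 CPM in a group are named with their values, as are up to 10 called members per comparison with the largest change and up to 4 called genes of at least 1 CPM per list. The lists were HOX-cluster noncoding RNAs, flanking genes, TALE cofactors, CDX and ParaHox genes, Trithorax and MLL complex, Polycomb, retinoic acid signalling, and sympathetic, mesenchymal, lymphoid and epithelial markers. Members and lists were chosen with earlier results of these data known. Figures were drawn with matplotlib 3.10.9.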

Additional observations from a re-analysis of the deposited data

Results flagged for a closer look

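For 8 HOX genes the test of the line by treatment interaction in edgeR was past the threshold over the 4 lines, with adjusted p-values of 0.00355 for HOXC6, 0.00363 for HOXB7, 0.00827 for HOXD1, 0.00936 for HOXC10, 0.01 for HOXD9, 0.0161 for HOXC4, 0.0412 for HOXD4 and 0.0456 for HOXA5. HOXC6 had log2 fold changes of 0.25, 0.37, 0.46 and -0.02 in CHLA15, CHLA20, NB1643 and NB1691. HOXD1 had -0.10, -0.58, -0.50 and 0.56 in the same order, HOXC10 had 0.26, 0.38, -0.56 and 0.19, and HOXD9 had 0.03, 0.15, 0.41 and 0.40. HOXC4 had -0.13, 0.20, 0.03 and -0.14, and HOXD4 had -0.69, 0.03, -0.38 and 1.16, the last from 0.208 and 0.159 CPM to 0.431 and 0.382. HOXB7 lay at 0.307 CPM or less outside NB1691, and HOXA5 was at the floor in every group but those of NB1691, so both passed the filter through NB1691 and nothing is read from their tests. With the libraries labelled NB1691 left out, 3 of the 8 passed (HOXC10, HOXC4 and HOXD9). CHLA15 and CHLA20 had the lower dose, so dose and line cannot be told apart here.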

How the results depend on the processing

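Of 185 recomputed counts of called HOX members, 157 lay within 1.5 times the count reported and 28 did not. Treating each file as a sample gave 2 calls in the siRNA comparison in place of 0, and DESeq2 gave 4 in place of 7 for 48 h against 24 h of GSK-J4. In CHLA15 with palbociclib DESeq2 and the replicate block each gave 3 in place of 5. Fitting only the groups compared gave 6 in place of 11 in NB1643, 19 in place of 11 in NB1691, and 3 in place of 5 between CHLA20 and CHLA15. Leaving out the libraries labelled NB1691, an alternative chosen after seeing the data, gave 3 in place of 8 for the interaction, 16 in place of 36 for any difference between untreated lines and 3 in place of 5 between CHLA20 and CHLA15, with 19 in place of 37 members tested. It also ended the palbociclib calls of HOXD4 in CHLA15 (edgeR adjusted p = 0.0732), HOXC10 and HOXC8 in CHLA20 (0.0556 and 0.0667) and HOXA7 in NB1643 (0.133). For the other settings the cause was not tested. Leaving out 1 library gave 4 to 6 calls for 48 h against 24 h of GSK-J4, 5 to 9 for the interaction, 0 to 3 for palbociclib in CHLA15 (0 without control replicate 2), 5 to 7 in CHLA20, 6 to 9 in NB1643, 7 to 8 in NB1691 and 2 to 4 between CHLA20 and CHLA15. Libraries whose absence took a count beyond 1.5 times were all 4 in CHLA15, palbociclib replicate 2 in CHLA20 (5), palbociclib replicate 1 (7) and control replicate 1 (6) in NB1643, palbociclib replicate 2 and both controls in NB1691 (7 each), 24 h replicate 1 and 48 h replicate 2 for 48 h against 24 h (4 each), both CHLA15 controls and CHLA20 control replicate 1 between those lines (2 and 3, and 3), and NB1643 palbociclib replicate 2, NB1691 palbociclib replicate 1 and NB1691 control replicate 2 for the interaction (5 each). Leaving out 1 library gave 7 to 11 for GSK-J4 at 24 h, 9 to 11 at 48 h, and 0 in each siRNA fit.

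Same-numbered replicates deviated together with r of -0.04 to 0.10 across genes, so the numbers were not taken as pairs. Under the replicate block the other counts of the GSK-J4 and palbociclib fits stayed within 1.5 times. Of 1198 recomputed results of single members 124 lost their call and 0 turned direction. Upper-quartile scaling moved the centre of the 48 h GSK-J4 log2 fold changes (median over every tested gene) from 0.05 to 0.16. Members near 3 counts have folds that depend on single reads.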

Other observations

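Retinoic acid is a classical inducer of HOX genes. Of its signalling genes in BE2C, 4 of 12 tested genes of the list were higher and 3 lower at 24 h of GSK-J4, and 5 were higher and 5 lower at 48 h, where 55.3% and 71.5% of all tested genes were called in either direction. RARG, a retinoic acid receptor, was at 10.7 and 10.5 CPM at 0 h, 2.85 and 3.34 at 24 h and 1.53 and 1.32 at 48 h (log2 fold change -2.88 at 48 h). CYP26B1, which breaks retinoic acid down, was at 0 and 0.0563 CPM at 0 h, 0.485 and 0.873 at 24 h and 1.78 and 1.52 at 48 h. ALDH1A3, which makes it, was at 1.49 and 0.985 CPM, then 0.379 and 0.468, then 0.201 and 0.425. With palbociclib 3 of 17 tested genes were higher and 5 lower in CHLA15, 9 and 3 in CHLA20, 5 and 2 in NB1643 and 6 and 1 in NB1691, where 29.8%, 29.6%, 39.9% and 32.8% of all genes were called. RDH10, an enzyme of retinal synthesis, was at 7.34 and 7.78 against 12.2 and 12.7 CPM in CHLA15, 11.3 and 12.3 against 18.8 and 19.1 in CHLA20 and 13.8 and 14.9 against 18.6 and 17.5 in NB1691, higher with the drug, and at 5.83 and 6.33 against 4.39 and 4.18 in NB1643. Between untreated NB1691 and NB1643, 13 were higher and 2 lower, with the retinol carrier receptor STRA6 at 132 and 127 CPM against 0.996 and 1.32.

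In the same comparison of lines, 9 Polycomb genes of 24 tested were higher and 10 lower in NB1691, and 3 Trithorax and MLL complex genes of 14 higher and 6 lower. Of all tested genes 44.6% were higher and 36.1% lower there. CDX1, a regulator of HOX genes, was at 1.12 and 1.22 CPM against 0.664 and 0.448 with palbociclib in CHLA15 and at 1.18 and 0.996 against 0.452 and 0.561 in CHLA20, the 1 CDX or ParaHox gene of 2 tested that was called in each line, with 0 called in NB1643 and NB1691. Of 12 tested mesenchymal markers 1 was higher and 5 lower with palbociclib in CHLA15, 1 and 4 in CHLA20, 3 and 4 in NB1643 and 6 and 2 in NB1691. Of all tested genes 29.8%, 29.6%, 39.9% and 32.8% were called in either direction in the same order. Of 4 tested epithelial markers 1 was higher in CHLA15, NB1643 and NB1691 each and 1 lower in CHLA20, and 0 of 3 tested lymphoid markers were called in any line.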
